A study of Mus musculus with 8 samples.

Results

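Chromatin accessibility at Mecom was described across 2 subpopulations of mouse MPP2 cells, early blood progenitors that still have several fates and favour the megakaryocyte and red cell lineages. The locus was taken as all peaks of the count table that overlap chr3:29840000-30420000 (mm9), which gave 55 of 134473 peaks. In that rule Mecom lies on the minus strand, from about 29850200 to 30408700, so transcription runs from the high-coordinate end toward the low one. Within that window the position alone chose the peaks, and no measured value did. The locus itself was chosen with earlier results of these data known. Of the 55, 53 overlapped the gene body, 2 lay beyond its high-coordinate end and 0 beyond its low-coordinate end.

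All cells came from adult C57BL/6 mice aged 8 to 12 weeks and carried the phenotype LSK (lineage-negative, Sca1-positive, Kit-positive), Flt3-, CD150+ and CD48+. The sort required Gata1, the erythroid and megakaryocytic transcription factor, in each group. One group was positive for Vwf, the gene of von Willebrand factor, and the other was negative, and the comparison asks where chromatin differs between Vwf+Gata1+ and Vwf-Gata1+ cells. Each library held 500 cells, with 4 libraries per group, and was made by Omni-ATAC, in which the Tn5 transposase cuts and tags open DNA. The sources used here do not say how Vwf and Gata1 were read in the sort. The labelled phenotype was not checked at marker genes, because peaks were not assigned to genes in this build. Separate animals or cultures are named in no label. The p-values therefore measure only how these libraries vary, and part of that spread may be technical.

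Mecom encodes zinc finger transcription factors that maintain haematopoietic stem cells. The gene has a pair of alternative starts. The upstream start gives the long MDS1-EVI1 protein, also called PRDM3, which carries a PR domain, and the internal start gives EVI1, which lacks that domain. Expression is known to be high in stem cells and lower in their progeny, and rearrangements that raise EVI1 occur in acute myeloid leukaemia.

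The RefSeq promoter table holds both starts, in the GRCm38.p6 build. They are shown because the strongest open site of the locus lay at the upstream end. Each runs 5′ to 3′ on the gene's strand, from 250 bases before to 50 bases after the start, and capitals mark the letters of a motif match. The starts lie 496.6 kb apart in that build, and positions were not converted between builds.
Mecom, upstream start (GRCm38.p6 chr3:30509710-30510009, minus strand): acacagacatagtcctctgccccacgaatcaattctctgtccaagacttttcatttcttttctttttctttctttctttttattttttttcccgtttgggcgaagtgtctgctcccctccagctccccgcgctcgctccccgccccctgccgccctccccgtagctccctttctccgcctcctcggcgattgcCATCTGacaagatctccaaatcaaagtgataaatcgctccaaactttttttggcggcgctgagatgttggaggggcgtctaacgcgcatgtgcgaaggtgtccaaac
Mecom, internal start (GRCm38.p6 chr3:30013155-30013454, minus strand): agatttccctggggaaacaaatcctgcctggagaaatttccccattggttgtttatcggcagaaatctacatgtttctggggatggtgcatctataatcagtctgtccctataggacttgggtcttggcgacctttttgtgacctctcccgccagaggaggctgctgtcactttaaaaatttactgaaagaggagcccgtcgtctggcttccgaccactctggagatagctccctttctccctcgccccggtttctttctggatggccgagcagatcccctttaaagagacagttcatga
The upstream sequence held 19 CpG dinucleotides, more than 71.9% of 32851 promoters in the table, and the internal one 9, more than 54.2%. Their GC content was 52.0% and 49.7%, higher than in 46.6% and 38.1% of those promoters.

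Letters of 6 motifs were searched on both strands, AGATAA for GATA factors, GGAAGT for ETS factors, TGTGGT for RUNX factors, CAGCTG and CAGATG for E-box factors, and TGACTCA for AP-1. None of the motifs contains another, and CAGCTG reads the same on both strands. The upstream sequence held 1 match, CAGATG on the opposite strand, printed as CATCTG, which begins 57 bases before the start. That motif was present in 17.2% of promoters of this length. The internal sequence held 0 matches. The other motifs were present in 11.2% (AGATAA), 23.8% (GGAAGT), 16.8% (TGTGGT), 16.3% (CAGCTG) and 5.20% (TGACTCA) of promoters. A match here is a match of letters, and its absence says only that these letters are not in this window.

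Total counts in peaks ran from 4628997 to 7753538 per library, of which 1017 to 1907 fell in the Mecom peaks. All signal below is in CPM, the count of a peak scaled to the depth of its library with a TMM correction for composition. Values of single libraries follow the order of replicates 1 to 4. CPM per kb divides by peak width where peaks are compared with each other. Log2 differences are Vwf+Gata1+ minus Vwf-Gata1+, with the standard error of edgeR's quasi-likelihood test, and adjusted p-values (Benjamini-Hochberg) run over all 97040 peaks that passed a filter on low counts.

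The Mecom locus was open in both groups, and the upstream end of the gene held more of its signal than any other step of 50 kb along it. In sorted bulk cells, fewer cells with an open site and a site open less often in each cell cannot be told apart. The peak chr3:30406619-30408385, which ends 315 bp inside the approximate gene end, held 21.8% of the signal of the locus. The 3 strongest peaks held 37.1% and the 10 strongest 62.2%. Taking the gene in steps of 50 kb from its upstream end, the first step held 9 peaks and 32.2% of the signal. The 2 peaks beyond that end added 10.7%. The step from 250 to 300 kb inside the gene followed with 6 peaks and 11.5%, and the step from 400 to 450 kb held 8 peaks and 9.62%.

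**Figure D1:**
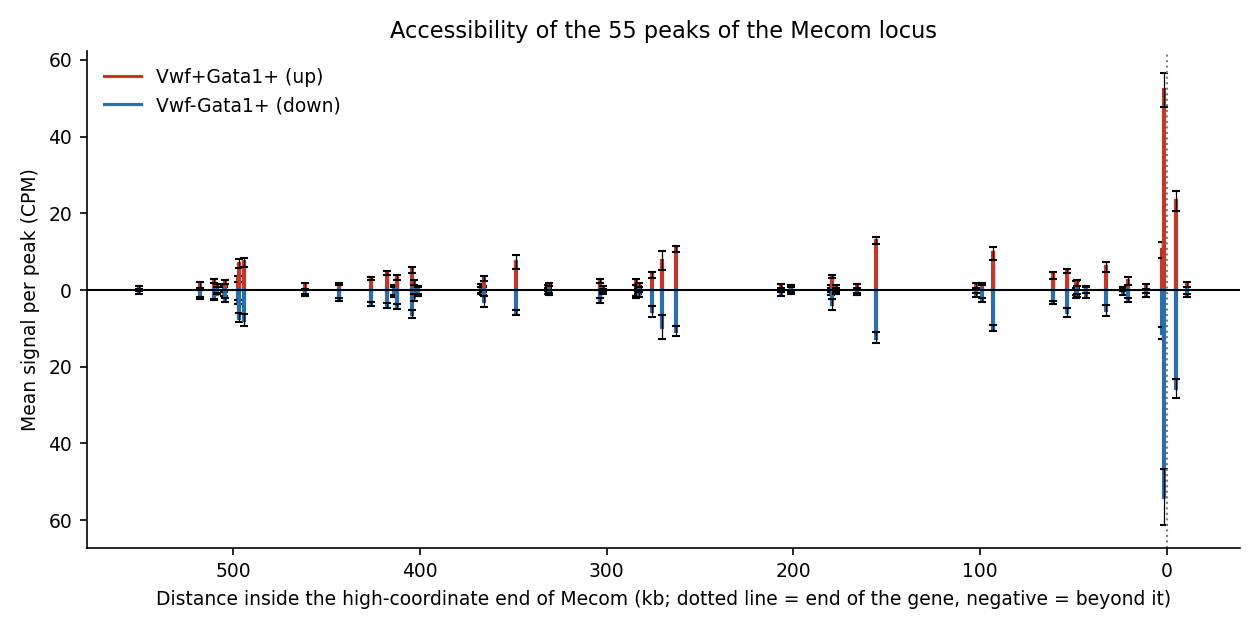
Mean signal of each of the 55 peaks in CPM (vertical axis, Vwf+Gata1+ upward in red and Vwf-Gata1+ downward in blue, black bars SD over 4 libraries) against the distance of the peak's middle from the high-coordinate end of the gene in kb. The strongest peak stands at the upstream end at over 50 CPM in both groups, and the upper and lower parts of the plot have the same outline.

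Long stretches without a peak separated the open sites. The widest gap between neighbouring peaks was 55.7 kb, between the peaks that end at 30146443 and start at 30202148, and the next was 53.02 kb, between 30253657 and 30306677. The median gap was 5158 bp, and 11 of 54 gaps were under 1 kb. Peaks covered 4.69% of the window.

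Most Mecom peaks were weak. The median signal was 1.96 CPM, against 2.68 CPM over all peaks, and 34 of the 55 were in the weaker 50% of all peaks. Only 2 were in the strongest 10% and 0 in the strongest 1%. Widths ran from 200 to 1767 bp with a median of 357 bp, against 393 bp over all peaks. At 3 Mecom peaks the width was 1500 bp or more (5.45%, against 3.26% of all peaks).

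The surroundings differed on the 2 sides. The flank of the same length, 580 kb, on the low-coordinate side held 3 peaks with a summed signal of 5.35 CPM. The flank on the high-coordinate side held 45 peaks and 534 CPM, against 55 peaks and 243 CPM at Mecom. In the GRCm38.p6 gene table the nearest protein-coding genes are Egfem1 on the low side and Actrt3 on the high side. That table also places 3 other genes within the span of Mecom, Gm52621, Mecomos and Gm10258, and which peaks belong to them was not analysed here. Over 4564 windows of 580 kb along the genome, 78.5% held fewer peaks than the Mecom window and 66.2% had less summed signal. These are descriptions with no test.

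At the upstream end, 3 neighbouring peaks were the nearest to the start of the long MDS1-EVI1 transcript. The peak chr3:30406619-30408385 was the widest of the locus at 1767 bp and had the highest density, 30.0 CPM per kb. It ranked above 98.1% of all peaks by signal. Its values were 46.7, 53.5, 50.9 and 57.2 CPM in the Vwf+Gata1+ libraries and 44.7, 51.7, 59.2 and 60.5 CPM in the Vwf-Gata1+ libraries. The groups overlapped over most of their range, and replicate 1 was the lowest library of each. The means were 52.1 ± 4.40 against 54.0 ± 7.33 CPM (SD, n = 4 each), a log2 difference of -0.05 ± 0.10 (SE; edgeR adjusted p = 0.967). The 95% interval of the fold difference, 0.845 to 1.11 (not adjusted for the number of tests), lay well inside 2-fold.

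Upstream of the gene, the peak chr3:30413101-30414657 starts 4401 bp beyond the approximate end and was the second strongest, with 1557 bp and 15.7 CPM per kb. It had 19.5, 25.7, 23.7 and 23.9 CPM in the Vwf+Gata1+ libraries and 24.7, 26.7, 22.7 and 28.5 CPM in the Vwf-Gata1+ libraries. Replicate 1 of Vwf+Gata1+ cells was the lowest of the 8 libraries, and the groups overlapped. The means were 23.2 ± 2.62 against 25.7 ± 2.48 CPM (SD, n = 4 each), a log2 difference of -0.16 ± 0.11 (SE; edgeR unadjusted p = 0.160, adjusted p = 0.842). Just inside the gene, the peak chr3:30405808-30406435 lies next to the strongest one. Its signal was 12.9, 11.2, 8.63 and 8.88 CPM in the Vwf+Gata1+ libraries and 11.8, 12.7, 10.9 and 9.02 CPM in the Vwf-Gata1+ libraries, with the highest value and the lowest value of all 8 libraries both in Vwf+Gata1+ cells. The log2 difference was -0.08 ± 0.16 (SE; edgeR adjusted p = 0.969).

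A pair of peaks lay far inside the gene, 496.7 and 494.3 kb from its upstream end. In GRCm38.p6 the internal start that gives EVI1 lies 496.6 kb from the upstream start. The span of the gene is 558.5 kb in that build and 558.5 kb in the mm9 rule. A position of that start in mm9 was not used here, and neither peak was assigned to it. The narrower of the pair, chr3:29914209-29914565, spanned 357 bp and held 21.0 CPM per kb, the second highest density of the locus, although it ranked 8 of 55 by signal. Its values were 8.50, 7.61, 5.53 and 7.08 CPM in the Vwf+Gata1+ libraries and 6.02, 8.26, 7.32 and 9.58 CPM in the Vwf-Gata1+ libraries. The means were 7.18 ± 1.25 against 7.80 ± 1.50 CPM (SD, n = 4 each), and the log2 difference was -0.09 ± 0.18 (SE; edgeR adjusted p = 0.966). At chr3:29911661-29912327, 667 bp wide with 10.6 CPM per kb, the values were 7.49, 5.98, 8.19 and 5.83 CPM in the Vwf+Gata1+ libraries and 7.78, 6.49, 6.01 and 8.60 CPM in the Vwf-Gata1+ libraries. Both groups spanned nearly the same range there, and the log2 difference was -0.09 ± 0.18 (SE; edgeR adjusted p = 0.966).

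Between these ends lay 5 other strong peaks of the gene body, whose roles are not given by the files. Nearest to the upstream start was chr3:30315362-30316351, 92.8 kb inside, with 7.36, 11.1, 9.07 and 10.8 CPM in the Vwf+Gata1+ libraries and 9.03, 9.45, 10.1 and 10.8 CPM in the Vwf-Gata1+ libraries. The means were 9.58 ± 1.72 against 9.87 ± 0.800 CPM (SD, n = 4 each). At 155.5 kb the peak chr3:30252752-30253657 was the strongest of the 5, with 13.6, 13.8, 12.4 and 11.8 CPM in the Vwf+Gata1+ libraries and 11.4, 13.4, 13.9 and 10.8 CPM in the Vwf-Gata1+ libraries. It was also the third strongest of the locus. At chr3:30144893-30146443, 263.0 kb inside and 1551 bp wide, the values were 10.3, 11.8, 10.8 and 9.85 CPM in the Vwf+Gata1+ libraries and 10.3, 11.5, 9.02 and 11.7 CPM in the Vwf-Gata1+ libraries. The log2 differences of these 3 were -0.05 ± 0.16, 0.07 ± 0.14 and -0.01 ± 0.15 (SE; edgeR adjusted p = 0.983, 0.970 and 0.997), all close to 0 and smaller than their errors.

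The other two of the 5 had differences of opposite sign, and neither passed the test. At chr3:30138249-30138981, 270.1 kb inside, the signal was 5.20, 9.79, 5.98 and 9.71 CPM in the Vwf+Gata1+ libraries and 6.65, 13.6, 10.3 and 7.61 CPM in the Vwf-Gata1+ libraries. It varied more than 2-fold between libraries, with the highest value in replicate 2 of Vwf-Gata1+ cells. The log2 difference was -0.30 ± 0.22 (SE; edgeR adjusted p = 0.853). It was -0.07 without replicate 2 of Vwf-Gata1+ cells, -0.45 without replicate 1 of that group, -0.13 with replicate 1 of Vwf+Gata1+ cells left out and -0.46 with replicate 4 left out. At chr3:30059392-30060689, 348.7 kb inside and 1298 bp wide, the values were 9.52, 5.26, 8.19 and 6.52 CPM in the Vwf+Gata1+ libraries and 6.40, 5.46, 6.39 and 5.35 CPM in the Vwf-Gata1+ libraries. Within Vwf+Gata1+ cells, replicate 1 was the highest of all 8 libraries and replicate 2 the lowest. Of the 10 strongest peaks it had the largest log2 difference toward Vwf+Gata1+ cells, 0.33 ± 0.19 (SE; edgeR unadjusted p = 0.0941, adjusted p = 0.800). Without replicate 1 of Vwf+Gata1+ cells this difference was 0.16.

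**Figure D2:**
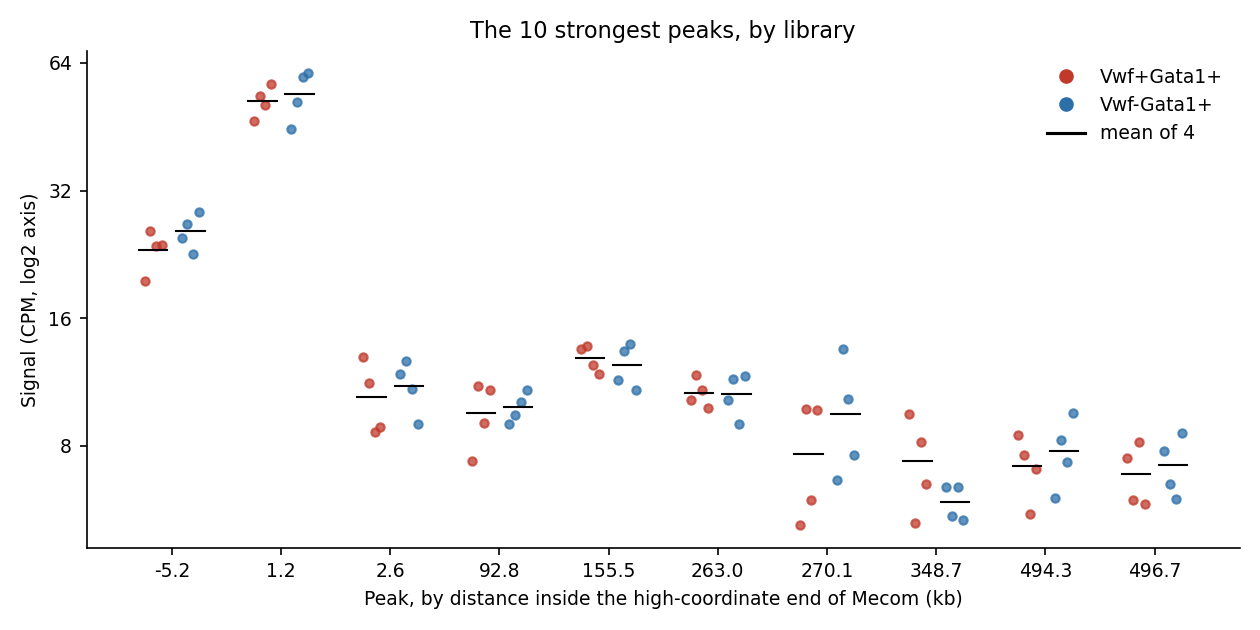
Signal in CPM (log2 axis) of the 10 strongest Mecom peaks in each of the 4 libraries per group, with black lines at the group means and peaks ordered by their distance in kb from the high-coordinate end (the negative value lies beyond it). Red and blue points overlap at each of the 10 peaks.

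No Mecom peak passed the adjusted threshold of 0.05. Of the 55 peaks, 34 passed the filter and were tested, and edgeR called 0 of them, where 0.0144% of all tested peaks were called. DESeq2, which gave no adjusted p for 7 of the 34, and limma-voom with quality weights also called 0. At an unadjusted p under 0.05 edgeR had 4 of the 34 (11.8%, against 6.72% of all tested peaks). DESeq2 had 1 of the 34, against 3.48% of all tested peaks, and limma-voom 3, against 7.46%. The lowest adjusted p of a Mecom peak was 0.630 in edgeR's test. In 29 of the 34 the 95% interval of the fold difference lay within 2-fold in either direction (85.3%, against 85.6% of all tested peaks).

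The 4 peaks at an unadjusted p under 0.05 were outside the 10 strongest and had lower means in Vwf+Gata1+ cells, where 3.07% of all tested peaks were lower at that level. At 0 of the 34 was the mean higher at that level, against 3.65% of all tested peaks. The count of 4 depended on single libraries. It was 1 of 36 without replicate 1 of Vwf+Gata1+ cells, and 2 of 35 without replicate 4 of that group or replicate 1 or 4 of Vwf-Gata1+ cells. Without replicate 3 of Vwf-Gata1+ cells it was 2 of 38, and in the 3 other such fits it was 3 to 5. Among all tested peaks, 5.82% to 7.95% reached that level when 1 library was left out. Where the Mecom count was 1 or 2, its share lay under that of all tested peaks in the same fit. In the 3 other fits its share lay above. With the replicate number as a block the count was 4 of 34, where 10.3% of all tested peaks reached that level. The lowest p was at chr3:30309753-30310056, 98.8 kb inside the gene, a peak of 304 bp. It had 1.27, 1.63, 1.33 and 1.80 CPM in the Vwf+Gata1+ libraries and 2.38, 2.66, 2.07 and 3.24 CPM in the Vwf-Gata1+ libraries. All 4 libraries of Vwf+Gata1+ cells lay under all 4 of Vwf-Gata1+ cells. The means were 1.51 ± 0.253 against 2.59 ± 0.498 CPM (SD, n = 4 each), a log2 difference of -0.78 ± 0.31 (SE; edgeR unadjusted p = 0.0168, adjusted p = 0.630).

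The groups also did not overlap at chr3:29965314-29965791, 443.1 kb inside, where the values were 1.27, 1.63, 1.55 and 1.67 CPM in the Vwf+Gata1+ libraries and 2.51, 2.51, 2.82 and 2.11 CPM in the Vwf-Gata1+ libraries. The log2 difference was -0.70 ± 0.31 (SE; edgeR unadjusted p = 0.0300, adjusted p = 0.700). These were the 2 tested Mecom peaks whose groups were separate, 5.88% of the 34, where 3.87% of all tested peaks were. Counts behind both were small, from 7 to 20 per library at the second and from 6 to 23 at the first.

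At chr3:30132876-30133356, 275.6 kb inside, the signal was 4.95, 3.99, 3.10 and 3.33 CPM in the Vwf+Gata1+ libraries and 6.90, 3.54, 6.39 and 5.50 CPM in the Vwf-Gata1+ libraries. Replicate 2 of Vwf-Gata1+ cells lay among the Vwf+Gata1+ libraries, and the log2 difference was -0.51 ± 0.23 (SE; edgeR unadjusted p = 0.0323, adjusted p = 0.707). At chr3:29890514-29890980, 518.0 kb inside, it was 1.02, 0.906, 2.43 and 0.833 CPM in the Vwf+Gata1+ libraries and 2.51, 1.77, 2.07 and 2.11 CPM in the Vwf-Gata1+ libraries. Replicate 3 of Vwf+Gata1+ cells stood apart from the other 3 of its group and reached the level of Vwf-Gata1+ cells. The log2 difference was -0.80 ± 0.36 (SE; edgeR unadjusted p = 0.0320, adjusted p = 0.707), and -1.20 without that library. Also among the 8 peaks with the lowest p was chr3:29996013-29996602, with 3.55, 2.72, 2.88 and 3.89 CPM in the Vwf+Gata1+ libraries and 4.77, 3.25, 4.51 and 4.79 CPM in the Vwf-Gata1+ libraries and a log2 difference of -0.38 ± 0.24 (SE; edgeR unadjusted p = 0.113, adjusted p = 0.815).

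**Figure D3:**
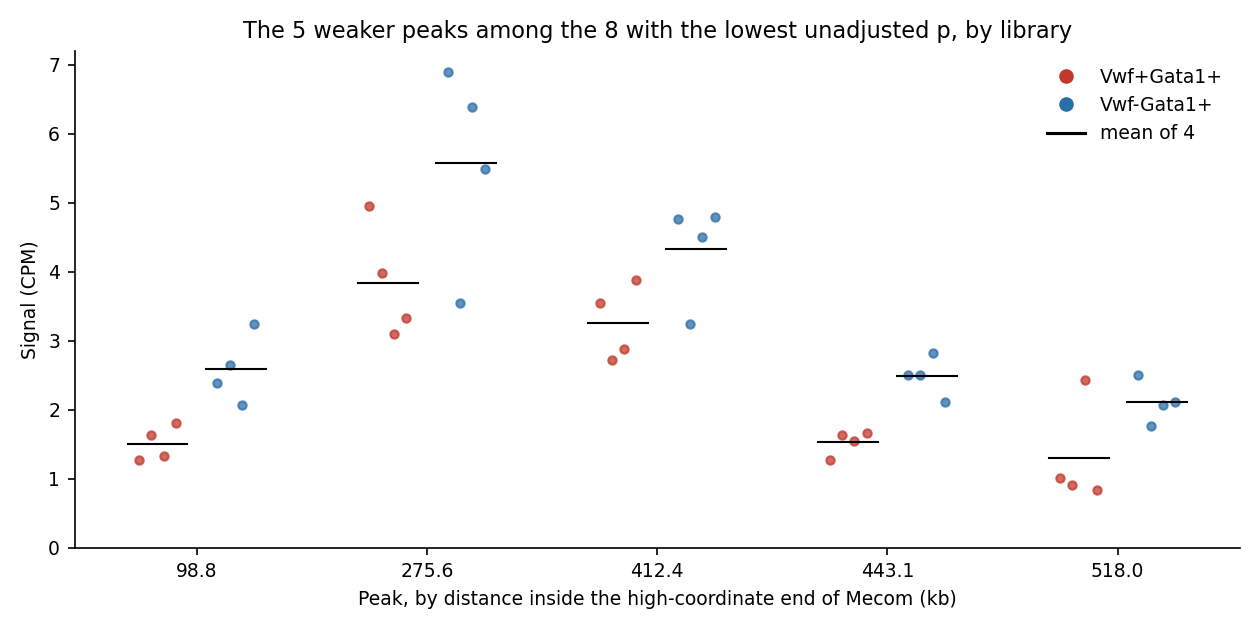
Signal in CPM of the 5 peaks that are among the 8 with the lowest unadjusted p but not among the 10 strongest, in each of the 4 libraries per group, with black lines at the means and peaks named by their distance in kb from the high-coordinate end. At 98.8 and 443.1 kb the red points lie under the blue points, and at 518 kb a single red point, replicate 3, reaches the blue ones.

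The other 19 tested peaks had mean signals from 1.20 to 5.75 CPM and log2 differences from -0.38 to 0.43, with 13 below 0 and no unadjusted p under 0.201 in edgeR's test. The 21 peaks that failed the filter were between 200 and 393 bp wide and had mean signals from 0.614 to 1.28 CPM, with 0 to 14 counts per library. The narrowest of the locus, chr3:30106403-30106602, was among them, with 0.761, 0.906, 0.221 and 1.11 CPM in the Vwf+Gata1+ libraries and 0.753, 0.885, 0.751 and 0.282 CPM in the Vwf-Gata1+ libraries. Values at this depth rest on a few counts each. The single count of 0 was at chr3:29858069-29858311 in replicate 2 of Vwf-Gata1+ cells, which allows a signal of up to 0.443 CPM (3 counts, counting error only). Of these 21, 12 had a lower mean CPM and 9 a higher one in Vwf+Gata1+ cells. By mean CPM, 36 of all 55 were lower. At peaks near 0 the sign can differ between mean CPM and a fitted log2 difference.

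Small differences toward lower signal in Vwf+Gata1+ cells lay in many parts of the locus, though not in all. By steps of 50 kb, the summed signal was higher in Vwf+Gata1+ cells from 150 to 250, 300 to 400 and 550 to 600 kb inside. The largest of these was the step from 300 to 350 kb, with 12.8 against 11.0 CPM. In the other steps it was lower. Of the 34 tested peaks 26 (76.5%) had a log2 difference below 0, where 48.4% of all tested peaks did, and the median was -0.09 against 0.01. In a fit without the filter, 33 of all 55 (60.0%) had a log2 difference below 0, against 49.0% of all peaks, with a median of -0.06. The second count is given because a peak can pass the filter through 1 group alone. These are descriptions with no test. The gene was also cut into 3 stretches, with limits chosen after the values were seen. Below 0 were 6 of 8 tested peaks at the upstream end (under 50 kb inside or beyond it), 13 of 19 between 50 and 450 kb, and 7 of 7 over 450 kb inside. That last stretch holds 10 peaks. Of its untested ones, the mean was higher in Vwf+Gata1+ cells at chr3:29858069-29858311 and chr3:29899795-29900009 and lower at chr3:29903371-29903615. The median followed single libraries: it was -0.03 without replicate 3 of Vwf+Gata1+ cells, -0.14 without replicate 1 of the same group and -0.15 without replicate 3 of Vwf-Gata1+ cells.

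**Figure D4:**
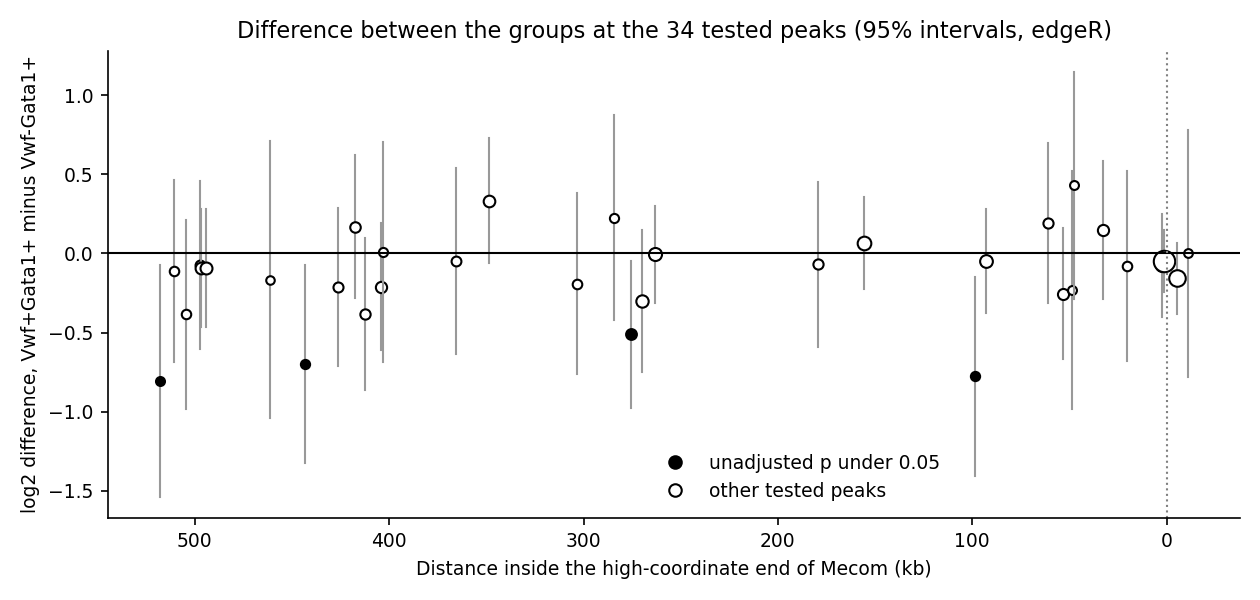
Log2 difference, Vwf+Gata1+ minus Vwf-Gata1+, of the 34 tested peaks with 95% intervals (grey) against distance in kb from the high-coordinate end of the gene. Points grow with mean signal, and filled points have an unadjusted p under 0.05. The 4 filled points lie below 0, and the large points at the upstream end lie close to 0.

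Summed over all 55 peaks, the locus had 232, 242, 225 and 244 CPM in the Vwf+Gata1+ libraries and 239, 257, 245 and 259 CPM in the Vwf-Gata1+ libraries. Replicates 1 and 3 were the lower ones in both groups, and the ranges of the groups overlapped. The means were 236 ± 8.82 against 250.1 ± 9.38 CPM (SD, n = 4 each), a log2 ratio of -0.09 with no test. As a share of all counts this was 0.0234% ± 0.00101 against 0.0252% ± 0.000981. In a single library the exact binomial interval (95%, counting error only) ran, for example, from 0.0206% to 0.0234% in the shallowest. The high-coordinate flank had 530.3 against 538 CPM, with 15 of its 30 tested peaks below 0.

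Of the counts of the locus, the strongest peak took 22.1% ± 1.40 in the Vwf+Gata1+ libraries against 21.6% ± 2.61 in the Vwf-Gata1+ ones (SD, n = 4 each). It was lowest in replicate 1 of both groups, 20.1% and 18.7%. Without the 3 strongest peaks the sum was 148 ± 6.41 against 158 ± 6.54 CPM. The ranges of the groups overlapped for both measures. Over 450 kb inside the gene, the sum was 26.7 ± 1.16 against 29.4 ± 2.37 CPM. The ranges there were 25.0 to 27.6 against 27.8 to 32.8 CPM, apart by a narrow margin. The limits of this stretch were chosen after the values were seen, with no test. How often other stretches separate was not counted. The internal pair of peaks lies in it, but the groups overlapped at each of the pair. Their means were 7.18 against 7.80 CPM at chr3:29914209-29914565 and 6.87 against 7.22 CPM at chr3:29911661-29912327. Weaker peaks made up the rest of the difference.

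Outside the locus, the 3 tested peaks whose log2 signal over the 8 libraries was most like the summed Mecom signal were chr11:90280584-90281656, chr3:13794861-13795202 and chr1:61400833-61401167. Pearson correlations were 0.980, 0.979 and 0.972, picked as the highest of 97006 and given as a description. Of these 97006 peaks, 171 had a correlation over 0.9. The points share libraries and depth. Their means were 15.3, 1.53 and 1.20 CPM in the Vwf+Gata1+ libraries, against 16.8, 2.15 and 1.97 CPM in Vwf-Gata1+ cells, and none passed edgeR's test (adjusted p = 0.903, 0.846 and 0.776). Among the 10 strongest Mecom peaks themselves the median pairwise correlation over the 8 libraries was 0.0700, with 24 of 45 pairs above 0, and 0.0620 with 24 of 45 among the 10 strongest peaks of the high-coordinate flank.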

How the data were processed

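The authors deposited 1 table of raw counts per peak for the 8 libraries. The build is mm9, per the submitters' processing notes, which also name MACS2, Bowtie2, Picard, SAMtools, FastQC and Trim Galore with no versions. The handling of duplicates, the merging of peaks, any shift of cut sites and the counting of reads or fragments are not given in the sources used here. Starts were read as 1-based. Groups came from the labelled cell type and replicate numbers from the titles.

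Peaks were filtered with edgeR's filterByExpr (minimum count 10, minimum total 15), which kept 97040 of 134473, scaled by TMM and tested with edgeR's robust quasi-likelihood test over the whole table. The standard error is the size of the log2 difference over the root of F. The code of this test was first tried on simulated counts with known changes, and no reported value comes from them. For correlations, 2 was added to counts as a prior before the log2. Named were any called peak, the 10 strongest, the 8 with the lowest unadjusted p, the 3 nearest the high-coordinate end, the widest and the narrowest. The locus, the lists and the tests were chosen with earlier results of these data known. Alternatives were the replicate block, RLE, total count and loess scaling, other filters, plain dispersions, DESeq2, limma-voom, an adjusted threshold of 0.1, the gene body alone, members of at least 1 CPM, and each library left out. Software was matplotlib 3.10.9 in Python 3.11.15, and DESeq2 1.42.0, edgeR 4.0.16 and limma 3.58.1 in R 4.3.3.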

Additional observations from a re-analysis of the deposited data

Results flagged for a closer look

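At chr3:29890514-29890980, replicate 3 of Vwf+Gata1+ cells had 2.43 CPM, while the other 3 libraries of its group lay between 0.833 and 1.02 CPM, a gap past the 95% critical value of Dixon's test. It was the only one among 36 groups of 4 checked, and chance marks about 1 in 20. The value rests on 11 counts, and its cause was not tested.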

How the results depend on the processing

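No Mecom peak passed the threshold in any of 19 alternatives, so the count was 0 in each. The gene body alone could not give another count, as it holds only peaks already tested in the main fit. The median log2 difference stayed below 0 in all 19, from -0.15 to -0.03, both ends without 1 library, and was -0.13 with limma-voom. Plain dispersions, members of at least 1 CPM and the gene body alone left it at the main value of -0.09. These add little to the check. The log2 ratio of the summed signal ran from -0.11 (total count scaling) to -0.07 (without replicate 3 of Vwf+Gata1+ cells) in 16. Plain dispersions and limma-voom do not alter that sum and were not run on it. The share of tested Mecom peaks below 0 ran from 59.5% to 79.4%, against 48.4% to 52.5% of all tested peaks. Of 255 values for the 15 named tested peaks, 9 changed sign and 0 passed the threshold. Sign changes came without 1 library, at peaks near 0: the log2 difference ran from -0.21 to 0.019 at 29914209, -0.069 to 0.035 at 30144893, -0.00089 to 0.12 at 30252752, -0.13 to 0.073 at 30315362 and -0.13 to 0.0065 at 30406619. With the replicate number as a block, 0 Mecom peaks passed (lowest adjusted p = 0.313 in edgeR's test), the median was -0.09 and the log2 ratio of the sum -0.09, with 526 calls over all peaks in place of 14. Deviations of same-numbered libraries correlated at 0.301, 0.163, 0.0731 and 0.0106 for replicates 1 to 4, and the best match of 5 of 8 libraries was the one with the same number, which is a hint only, since no label ties the numbers. Depth limits the weak peaks: the 21 untested ones had at most 14 counts in a library.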
